A study of Mus musculus with 8 samples.

Results

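The Fos, Jun and related AP-1 factors described here are 9 of the 13675 genes that the arrays of this series name: Fos, Fosb, Fosl1, Fosl2, Jun, Junb, Jund, Atf3 and Maff. Their transcripts were read in whole mouse skin on Affymetrix oligonucleotide arrays of 2 types, called A chip and B chip, which carry different probe sets. A probe set is a group of short probes for 1 transcript, and a probe set was included where the platform annotation gave it exactly 1 symbol and that symbol was one of the 9. All 9 genes had such a probe set, which gave 17 of the 24965 probe sets of the series, with 13 of 12488 from A chips and 4 of 12477 from B chips. The tissue came from p63 null embryos and from wild-type embryos at E18.5 (embryonic day), late in gestation, bred from mice heterozygous for p63. Each genotype had 2 arrays on each chip, numbered 1 and 2 in the sample titles, so 8 arrays in all. The sample descriptions give an embryo as the source of each skin, and the design text counts 2 embryos of each genotype. The p63 allele is not named in the labels, and the labels leave unsaid whether skin 1 of the A chip is skin 1 of the B chip. The comparison asks how AP-1 transcripts differ in late embryonic skin without p63, the transcription factor of stratified epithelia that Trp63 encodes.

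AP-1 is not a single protein but a family of basic leucine zipper (bZIP) dimers. Jun proteins pair with each other or with Fos proteins, while Fos proteins need a Jun partner, and the pair binds a short DNA element in the control regions of many genes. Several members are immediate early genes, whose transcripts appear within minutes of growth factor, wound or stress signals and decay quickly. In skin, AP-1 is known for its part in keratinocyte differentiation, wound repair and inflammation. Mice without p63 are known to lack a stratified epidermis.

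Values are MAS5 signals, a linear intensity per probe set that had been scaled so that the arrays of a chip share nearly the same trimmed mean. Each log2 fold change is the null mean minus the wild-type mean of log2(signal + offset), a scale that shrinks the changes of weak signals. A probe set was tested when its mean log2 value over the 4 arrays passed the 40th percentile of its chip, about a signal of 54.0 (A chip) or 166.9 (B chip). A probe set was called when limma's adjusted p, over all tested probe sets of the chip, was below 0.05. No detection calls were used here, so a low signal is described only as low. The single Trp63 probe set, on the A chip, read 61.9 and 46.6 in null embryos and 379.3 and 347.1 in wild-type embryos. Whether its probes fall inside the mutated stretch of the gene is not stated. Tested log2 values correlated at 0.950 to 0.984 between arrays of 1 genotype and at 0.769 to 0.865 between genotypes. The beta-actin 3' over 5' signal ratio, which goes up as RNA degrades, was 1.27 in both null arrays of the A chip, against 1.63 and 1.69 in wild type. It was 1.36 and 1.33 in the null on the B chip, also below both wild-type arrays, the higher of which had 1.98. An added control transcript, the 3' CreX spike, was far brighter in null replicate 2 of either chip. It read 6419.5 in that array of the A chip, while the other 3 had 3333.7 to 3836.8, and 32512.0 in that of the B chip, while the other 3 had 16965.6 to 18942.4.

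In null skin 3 AP-1 genes were called higher on the A chip, Atf3, Fosb and Jund, each on 1 probe set. On the B chip 1 was called lower, Fosl2, on each of its 2 tested probe sets. The untested probe sets of Atf3, Jund and Fosl2 did not repeat these changes, and 104156_r_at of Atf3 went the other way. Atf3 had 1.91 times the mean wild-type signal, Fosb 1.82 times and Jund 1.40 times, while the Fosl2 probe sets had 0.58 and 0.62 times. Fos, Jun, Junb and Maff did not pass the threshold, and the Fosl1 probe set read too low to be tested. Of the 7 member probe sets tested on the A chip 3 were called, all higher in the null, against 44.3% of all tested probe sets of that chip called in either direction and 22.1% called higher (22.2% lower). The A-chip members called lower numbered 0 by limma, and 1 (Fos) at an unadjusted p under 0.05. On the B chip 2 of 3 tested member probe sets were called, both of Fosl2 and both lower, against 29.4% of all tested probe sets called and 14.9% called lower (14.5% higher). The genotypes did not overlap for 5 of the 7 A-chip members, 4 with the null higher and 1 with it lower, against 74.0%, 37.8% and 36.2% of all tested probe sets. They did not overlap for any of the 3 B-chip members, all with the null lower, against 67.7% of all tested probe sets, 31.7% with the null lower and 36.1% with it higher. The share of members called on the A chip, 42.9%, was near that of the whole chip, so the count shows nothing particular to AP-1 genes. The 3 probe sets of the B chip are too few to set against the chip's share. The median log2 fold change of the tested member probe sets was 0.48 (A chip) and -0.68 (B chip). Over all tested probe sets it was 0.02 and 0.04. Junb gave 2 of the 7 A-chip values, and Fosl2 gave 2 of the 3 B-chip values. With each gene read by its highest probe set, the medians were 0.365 over 6 A-chip genes and -0.412 over 2 B-chip genes. Medians over so few genes cannot show a shift of the family. In whole skin, fewer cells of a type and less RNA per cell cannot be told apart.

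The 250 bases before the annotated start of the 4 genes that changed are given to show the letters that bZIP factors can read next to each start. They are from RefSeq on the GRCm38.p6 build, and lie for Atf3 at chr1:191183334-191183583 (minus strand), for Fosb at chr7:19310046-19310295 (minus strand), for Jund at chr8:70697489-70697738 (plus strand) and for Fosl2 at chr5:32136222-32136471 (plus strand). Each runs 5′ to 3′ in the direction of transcription, and capitals mark matches to the motifs searched.
Atf3: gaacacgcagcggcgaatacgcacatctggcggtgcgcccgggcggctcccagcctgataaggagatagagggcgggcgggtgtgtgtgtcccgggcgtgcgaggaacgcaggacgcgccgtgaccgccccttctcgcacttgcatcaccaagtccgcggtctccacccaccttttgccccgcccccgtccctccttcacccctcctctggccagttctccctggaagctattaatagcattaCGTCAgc
Fosb: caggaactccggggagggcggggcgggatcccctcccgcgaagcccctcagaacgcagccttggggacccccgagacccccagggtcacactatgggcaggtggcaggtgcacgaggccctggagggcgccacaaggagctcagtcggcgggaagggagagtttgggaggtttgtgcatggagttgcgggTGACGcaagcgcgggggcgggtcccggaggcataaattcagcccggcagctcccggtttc
Jund: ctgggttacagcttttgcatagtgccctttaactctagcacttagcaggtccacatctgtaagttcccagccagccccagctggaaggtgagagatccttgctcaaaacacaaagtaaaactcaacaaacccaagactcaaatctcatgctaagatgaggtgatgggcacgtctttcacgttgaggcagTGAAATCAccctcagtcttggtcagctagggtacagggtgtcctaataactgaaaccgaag
Fosl2: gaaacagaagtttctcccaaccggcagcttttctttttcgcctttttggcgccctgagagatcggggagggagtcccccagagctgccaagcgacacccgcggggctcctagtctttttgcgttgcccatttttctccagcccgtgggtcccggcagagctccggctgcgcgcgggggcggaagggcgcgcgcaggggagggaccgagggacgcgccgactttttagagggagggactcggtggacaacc
The motifs were TGANTCA, the letters of the classical AP-1 site, TGANNTCA, those of the longer ATF/CREB type of site, and TGACG, the core of that type, each on both strands. A TGANNTCA whose middle letters are CG also holds TGACG. Atf3 had TGACG on the other strand (printed as CGTCA), first base 7 bases before the start, Fosb had TGACG 60 bases before it, and Jund had TGAAATCA 61 bases before it. The Fosl2 window held no match. Of the 9 genes, 8 had a window, Maff with several, so that 10 windows were searched, and Fosl1 had no entry. TGACG was in 6 of the 10 (17.8% of all 32851 windows of this length), TGANNTCA in 4 (11.9%) and TGANTCA in 0 (6.75%). Maff alone gave more than 1 of the windows with each of the first 2 motifs. Counted by gene, 5 of the 8 had TGACG, 3 had TGANNTCA and 0 had TGANTCA. The shares by gene over all genes were not computed. A match is a description of letters, not of a bound site.

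**Figure D1:**
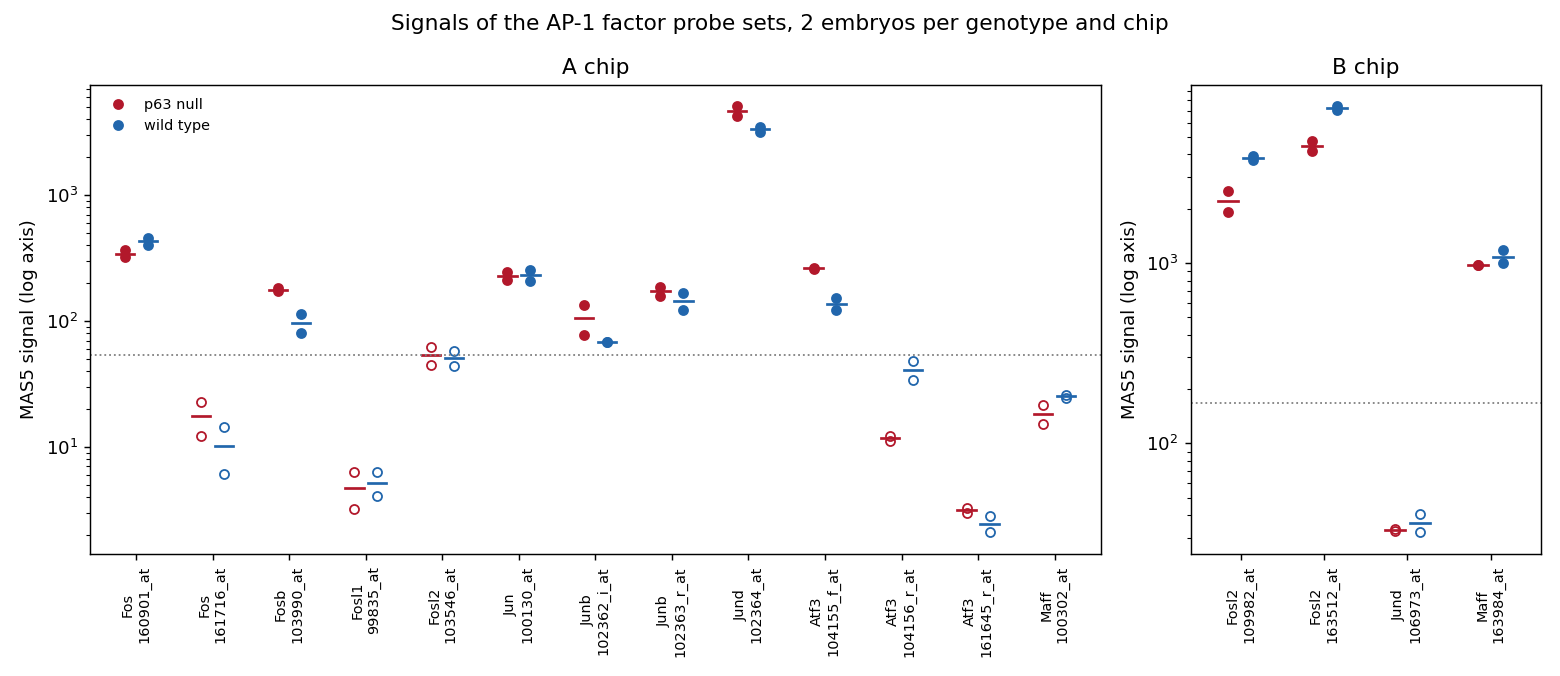
MAS5 signal (log axis) of every AP-1 probe set on the A chip (left) and the B chip (right), with p63 null arrays in red to the left of wild-type arrays in blue. Points are single arrays, short bars are means of 2 arrays, open points are probe sets not tested, and the dotted line is the level for testing (54.0 and 166.9). Of the called probe sets, null points lie above wild type for Atf3 104155_f_at, Fosb and Jund 102364_at, and below it for Fosl2 of the B chip. Some probe sets that were not called or not tested also separate, in either direction.

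The Fos family went in different directions. Fosb, an immediate early partner of Jun proteins, had signals of 181.5 and 173.3 in null skin, against 114.5 and 80.1 in wild type. Both null arrays lay above both wild-type arrays, and the wild-type arrays were farther apart than the null arrays. The log2 fold change of Fosb was 0.81 (SE 0.20, adjusted p = 0.0102). Without wild-type replicate 2 it was 0.58 and no longer called (adjusted p = 0.0754). Fos, the founding member of the family, had 363.8 and 319.9 in null skin on its stronger probe set, against 403.0 and 459.3 in wild type. The groups did not overlap, with the null lower, but the log2 fold change of -0.32 (SE 0.14, 95% interval -0.64 to -0.01) had an unadjusted p = 0.0446 and an adjusted p = 0.0882. Its other probe set, 161716_at, read 12.1 and 22.9 in the null and 6.1 and 14.3 in wild type, too low to be tested.

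Fosl2, also called Fra-2, lacks the strong activation domain of Fos and is expressed in the epidermis. On probe set 163512_at of the B chip it had 4773.3 and 4172.4 in null skin and 7014.6 and 7397.7 in wild type. On 109982_at it had 2505.1 and 1926.0 in null skin and 3931.3 and 3720.5 in wild type. On each the null arrays were both below the wild-type arrays, by a wide margin. The log2 fold changes were -0.68 (SE 0.12, adjusted p = 0.00615) for 163512_at and -0.78 (SE 0.15, adjusted p = 0.00847) for 109982_at. With wild-type replicate 2 left out 163512_at was no longer called (log2 fold change -0.65, adjusted p = 0.0556), while 109982_at kept its call with any 1 array left out. The remaining Fosl2 probe set, 103546_at on the A chip, showed no such separation, with 61.8 and 45.0 in null skin and 58.3 and 44.0 in wild type. It lay just under the level for testing, and its log2 fold change was 0.05. Fosl1, or Fra-1, had 6.3 and 3.2 in null skin and 6.3 and 4.1 in wild type, among the lowest signals of the chip, so nothing can be said of its change.

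The Jun family was led by Jund. Jund, a Jun protein with steady expression in many tissues, had 4260.9 and 5087.7 in null skin and 3495.9 and 3185.8 in wild type on 102364_at. The groups did not overlap. The log2 fold change was 0.48 (SE 0.13, adjusted p = 0.0146), the smallest of the called changes among the members. With wild-type replicate 1 left out the call was lost (0.55, adjusted p = 0.0711), as it was without wild-type replicate 2 (0.41, adjusted p = 0.187). The second Jund probe set, 106973_at on the B chip, read 32.5 and 33.5 in null skin and 40.5 and 32.2 in wild type, below the level for testing.

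Jun, the main transactivating partner of Fos, had 210.9 and 245.5 in null skin and 209.8 and 255.3 in wild type. The genotypes overlapped almost fully, and the log2 fold change was -0.02 (SE 0.16, adjusted p = 0.919). Its 95% interval, -0.39 to 0.35, still allows a change of that size in either direction. Junb, a weaker activator that can oppose Jun and is known to restrain inflammation in skin, was read by 2 probe sets. On 102362_i_at it had 77.7 and 133.0 in null skin and 67.7 and 68.6 in wild type (log2 fold change 0.50, SE 0.25, adjusted p = 0.132). Here null replicate 2 was well above the other arrays, and without null replicate 1 the value was 0.85 and called (adjusted p = 0.0171). On 102363_r_at the genotypes overlapped, with 157.6 and 187.7 in null skin and 166.2 and 121.8 in wild type (0.25, SE 0.19, adjusted p = 0.319). The i, r and f in probe set names mark sets for which the array's usual rules for choosing probes could not all be met, and an f set may bind related transcripts.

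Atf3, a stress-inducible factor of the ATF/CREB branch that pairs with Jun proteins, had the largest rise among the members. On 104155_f_at it had 265.3 and 258.4 in null skin and 152.3 and 121.4 in wild type. The null arrays were close together and both above wild type, and the log2 fold change was 0.88 (SE 0.17, adjusted p = 0.00258). The call was kept with any 1 array left out. The other Atf3 probe sets do not repeat this. On 104156_r_at, annotated to the same sequence record and below the level for testing, the order was the opposite, with 11.2 and 12.3 in null skin and 47.7 and 34.2 in wild type. Its log2 fold change was -1.11, which was called lower when no filter was applied (adjusted p = 0.0199). The remaining Atf3 probe set, 161645_r_at, read between 2.1 and 3.3 on all A-chip arrays. The rise of Atf3 therefore rests on 1 probe set of 3, of the kind that may bind related transcripts. Maff, a small Maf protein with no activation domain of its own, had 973.0 and 978.7 in null skin and 994.6 and 1173.7 in wild type on the B chip. Its log2 fold change was -0.14 (SE 0.15, adjusted p = 0.499, 95% interval -0.48 to 0.20). The A-chip probe set for Maff read 21.5 and 15.3 in null skin and 25.7 and 24.6 in wild type, too low to be tested.

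**Figure D2:**
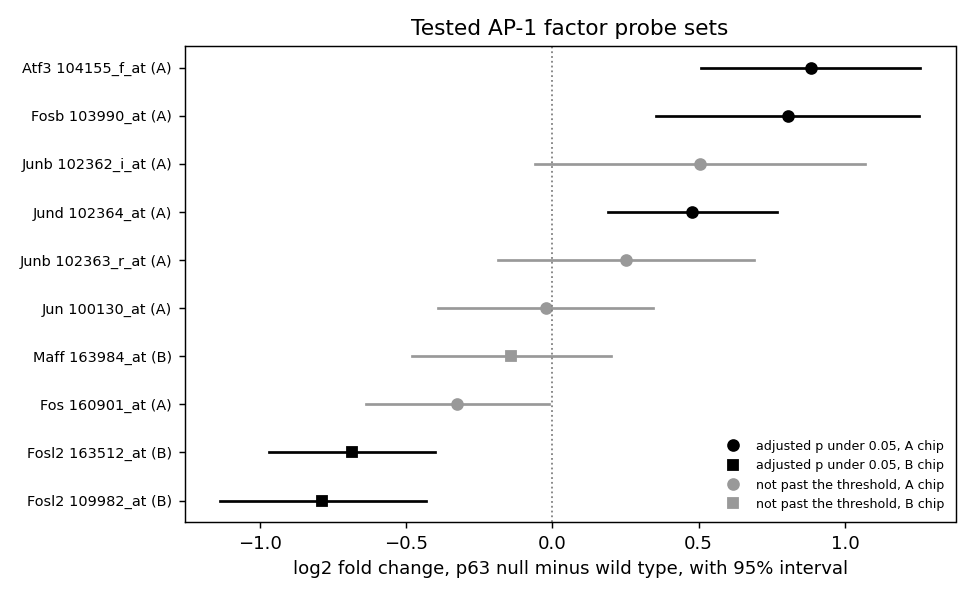
Log2 fold changes (p63 null minus wild type) of the 10 tested AP-1 probe sets with 95% intervals from limma. Circles are A-chip and squares B-chip probe sets, black where the adjusted p was below 0.05 and grey otherwise. Atf3 is at the top at 0.88 and Fosl2 109982_at at the bottom at -0.78, with Jun at -0.02.

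Left-out arrays moved the called values without turning their direction. The range with 1 array left out was 0.73 to 1.03 for Atf3, 0.58 to 1.03 for Fosb, 0.35 to 0.61 for Jund, -0.97 to -0.60 for Fosl2 109982_at and -0.78 to -0.59 for Fosl2 163512_at. A group with 1 array left is assumed to vary like the other group. All 5 probe sets kept their direction without null replicate 2, the array that stood apart in the CreX spike. The part of that array in these values was not tested. The lower beta-actin and Gapdh 3' to 5' ratios of the null arrays ran beside all of these differences, as did the high ratios of wild-type replicate 2. The part of these ratios in the differences was not tested.

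**Figure D3:**
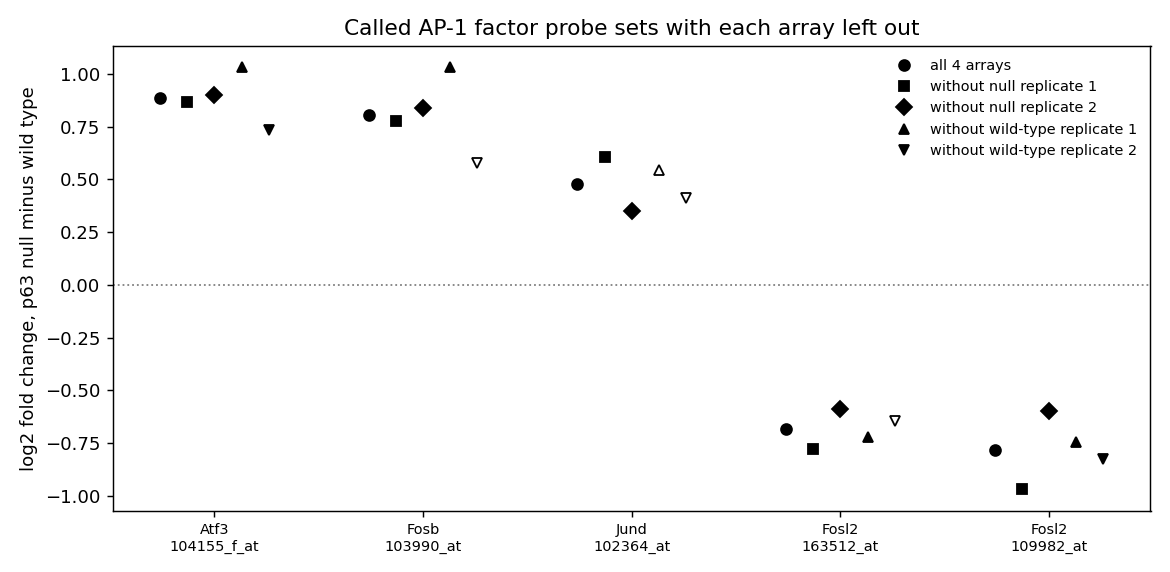
Log2 fold changes (p63 null minus wild type) of the 5 called AP-1 probe sets with all 4 arrays of the chip and with each array left out in turn. Filled points have an adjusted p below 0.05 and open points do not. Each open point, of which Jund has 2 and Fosb and Fosl2 163512_at 1 each, comes from leaving out a wild-type array.

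Markers of the cell types of skin also differed between the genotypes on the A chip. Beside the counts below, 22.5% of all tested A-chip genes were called higher and 22.8% lower. Of 14 keratinocyte markers 10 were tested and 8 fell, and the summed signal of those tested was 4271.9 and 4867.3 in null skin against 29001.1 and 27918.9 in wild type. The defining basal keratins Krt5, Krt14 and Krt15 read at most 15.9 on every A-chip array and were not tested there, while on the B chip Krt15 read 842.1 and 784.0 in null skin against 10543.6 and 12121.1 in wild type. Leukocyte markers rose in 10 of 11 tested cases (summed signal 10492.8 and 11156.7 in null skin, 4252.1 and 3994.0 in wild type), endothelial markers in 6 of 8 (4380.2 and 4893.7 in null skin, 2465.0 and 2589.0 in wild type) and fibroblast markers in 4 of 8 (34098.7 and 40871.8 in null skin, 31268.8 and 29186.2 in wild type). Skeletal muscle markers rose in 9 of 9 (18290.3 and 20044.5 in null skin, 9451.1 and 9299.3 in wild type) and adipocyte markers in 5 of 6 (13280.4 and 14043.5 in null skin, 6010.3 and 5748.2 in wild type). The part of these cell types in the AP-1 values was not tested.

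The genes whose values over the 4 arrays lay nearest to a member's were found by the distance between log2 values, each taken relative to its own wild-type mean. For Atf3 they were Ltc4s (distance 0.059), Ppp1r18 (0.098) and, next, Chchd3, among the other 6757 A-chip probe sets that were tested and carry 1 symbol. For Fosl2 109982_at they were Zmat2 (0.036), Gid4 (0.038) and Zfp180 (0.045), among 6813 on the B chip. With 4 arrays, such likeness is little more than a like fold change.

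Among 25 other bZIP genes, relatives and possible partners of AP-1, 16 were tested on the A chip, of which 3 rose and 2 fell, with a median log2 fold change of 0.20. Cebpd, a factor of the acute phase response, had 1091.2 and 1271.1 in null skin and 488.0 and 578.6 in wild type (1.13, SE 0.14, adjusted p = 0.000203). Nfe2l1 (0.51, adjusted p = 0.00909) and Bach1 (0.43, adjusted p = 0.0294), both partners of small Maf proteins, also rose, but each has a second tested probe set that was not called (0.22 and 0.34). Nfe2, a factor of erythroid cells and megakaryocytes that pairs with small Maf proteins, fell, with 51.8 in both null arrays and 107.9 and 133.1 in wild type (-1.04, adjusted p = 0.00335). The null signals of Nfe2 were under the level for testing, which it passed through wild type. Atf2, a partner of Jun, fell by 0.46 (adjusted p = 0.0209). With wild-type replicate 2 left out Bach1 and Nfe2l1 were no longer called (adjusted p = 0.165 and 0.0809). That of Bach1 was also lost without null replicate 1 (0.118), with no filter (0.0577) and with no variance trend (0.0661). That of Atf2 was lost without null replicate 2 (0.0753), wild-type replicate 1 (0.0880) or wild-type replicate 2 (0.0755). Of 5 tested on the B chip, Maf rose by 0.67 (adjusted p = 0.00420), with 9055.3 and 9017.9 in null skin and 5656.2 and 5674.7 in wild type, and its second tested probe set rose too (0.88). Mafg, a small Maf protein like Maff, rose by 0.56 (adjusted p = 0.0173), which did not hold with wild-type replicate 1 (0.116) or 2 (0.0848) left out. Creb1 fell by 0.46 (adjusted p = 0.0407), a call lost under 6 of the alternatives (adjusted p = 0.0545 to 0.253). Over all genes read by their highest probe set, 45.2% of the A chip and 32.1% of the B chip were called.

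Of 26 kinases and serum response factors that act on AP-1 genes or proteins, 9 were tested on each chip. Map2k4, a kinase that activates the Jun N-terminal kinases, fell on both chips, to 147.0 and 88.0 in null skin against 254.7 and 237.6 in wild type on the A chip (-1.03, SE 0.22, adjusted p = 0.00506), and to 1190.6 and 1283.0 against 2398.7 and 2618.9 in wild type on the B chip (-0.99, SE 0.13, adjusted p = 0.00158). Map2k6, an activator of p38 kinases, fell on both of its tested probe sets (-1.40 and -1.01, adjusted p = 0.000450 and 0.00774). Map2k2, an activator of ERK kinases, and Mrtfa, a co-activator of serum response factor, rose on the A chip by 0.49 (adjusted p = 0.0317) and 0.51 (adjusted p = 0.0384). The Jun kinase Mapk9 (0.59, adjusted p = 0.0148) and the ternary complex factor Elk1 (0.92, adjusted p = 0.0215) rose on the B chip, Elk1 with a second probe set not called (0.51). The calls of these rises were lost with some single arrays left out, while the values kept their direction. Those of Map2k2 and Mrtfa were lost without null replicate 2 (0.105 and 0.211), wild-type replicate 1 (0.104 and 0.0802) or wild-type replicate 2 (0.111 and 0.124), and with no filter (0.0540 and 0.0779). That of Mapk9 was lost without wild-type replicate 1 (0.0889) or 2 (0.0840), and that of Elk1 without wild-type replicate 2 (0.120). The falls of Map2k4 and of the stronger Map2k6 probe set were kept in each of these fits.

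Other immediate early genes, which share the fast response of Fos to signals and to tissue handling, went both ways. Of 32, 25 were tested on the A chip, where 3 rose and 5 fell with a median of -0.14. Of all tested A-chip genes, 22.5% were called higher and 22.8% lower. Klf4, a factor of the upper epidermis, had 802.8 and 899.5 in null skin and 2042.5 and 1681.5 in wild type (-1.11, SE 0.13, adjusted p = 0.000189). Btg1 (-0.72), Gadd45b (-0.67), Egr2 (-0.64) and Ier2 (-0.62) also fell, with adjusted p-values of 0.00109, 0.0160, 0.0227 and 0.00339. Socs3, a feedback inhibitor of cytokine signalling, rose by 0.70 (adjusted p = 0.0130), Ccn1, a matricellular protein, by 0.59 (adjusted p = 0.0449), and Nfkbia, the inhibitor of NF-kappaB, by 0.39 (adjusted p = 0.0278). All 3 rises lost their calls when null replicate 1 was left out (adjusted p = 0.0562, 0.178 and 0.0767) or when wild-type replicate 2 was (0.0655, 0.231 and 0.151). Those of Ccn1 and Nfkbia were lost without wild-type replicate 1 too (0.0513 and 0.0749), that of Ccn1 also without null replicate 2 (0.0586) and with no filter (0.105), and that of Nfkbia with no variance trend (0.0600). The falls of Gadd45b and Egr2 were lost without null replicate 1 (0.0526 and 0.0873), that of Gadd45b without wild-type replicate 2 (0.0855), and that of Egr2 without wild-type replicate 1 (0.114) or with no filter (0.0583). Gadd45b and Nfkbia each have a second tested probe set that was not called (-0.63 and 0.25), while that of Socs3 rose (1.06). The B-chip probe set of Btg1 was not called either (-0.24, adjusted p = 0.410). Egr1, which is induced together with Fos, had 225.1 and 161.4 in null skin and 160.5 and 170.7 in wild type (0.19, adjusted p = 0.434), chosen after its value was seen. Dusp5 of the B chip, a phosphatase of ERK kinases, fell by 0.67 (adjusted p = 0.0158). It was 1 call of 7 genes tested there, against 32.1% of all tested B-chip genes. That call was lost without wild-type replicate 1 (log2 fold change -0.72) or 2 (-0.62).

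Heat shock genes, a second group sensitive to stress and handling, fell in 5 of 7 tested cases on the A chip. The share called lower over all tested A-chip genes was 22.8%. Hspa1b, an inducible Hsp70, had 101.9 and 108.9 in null skin and 1170.3 and 1200.5 in wild type (-3.34, adjusted p = 1.72e-07). Hspa1a (-2.69, adjusted p = 0.000138), whose probes can bind Hspa1b, Dnajb1 (-1.14, adjusted p = 0.000339), Hsp90aa1 (-0.80, adjusted p = 0.000977) and Dnaja1 (-0.39, adjusted p = 0.0257) fell as well. The call of Dnaja1 was lost without null replicate 1 (0.0731), wild-type replicate 1 (0.104) or wild-type replicate 2 (0.111), and with no variance trend (0.0657). These falls ran opposite to the rises of Atf3, Fosb and Jund, and in the same direction as the fall of Fosl2. Any part of stress or handling in these values was not tested.

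Genes with AP-1 sites in their known control regions were taken as 2 lists, epidermal genes and wound and matrix genes, and the difference between the lists was not tested. Of 16 epidermal genes 10 were tested on the A chip and 8 fell (22.8% of all tested A-chip genes), with a median log2 fold change of -2.93. The cornified envelope genes Lor and Ivl, which encode loricrin and involucrin, and Flg, which encodes filaggrin, led with -5.42, -4.53 and -4.41 (adjusted p = 2.61e-08, 2.91e-07 and 2.61e-08). Ivl had 12.4 and 19.8 in null skin, under the level for testing, which it passed through 660.1 and 646.7 in wild type. These falls were several times larger in log2 terms than that of any AP-1 member, and ran beside the fall of the keratinocyte markers given above, with which the list shares Krt1, Krt5 and Krt14. The 2 tested genes that were not called were Hbegf (0.19) and Sprr1b (0.36, adjusted p = 0.0615), whose second probe set fell (-0.75, adjusted p = 0.00159).

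Of 23 wound and matrix genes with such sites 11 were tested on the A chip, of which 6 rose and 3 fell, with a median of 0.70. The shares over all tested A-chip genes were 22.5% higher and 22.8% lower. Tnc, the wound matrix glycoprotein tenascin C, had 1726.0 and 1529.8 in null skin and 216.1 and 179.2 in wild type (2.97, adjusted p = 5.86e-07). Ccl2, a chemokine that draws monocytes, rose by 2.34 (adjusted p = 2.58e-06) and Timp1, an inhibitor of matrix metalloproteinases, by 1.70 (adjusted p = 2.20e-05). Serpinb2, a protease inhibitor made by keratinocytes, had 160.3 and 99.9 in null skin and 963.9 and 1026.5 in wild type (-2.85, adjusted p = 6.83e-06). Hmox1 (-1.08, adjusted p = 0.00195) and Ccnd1 (-0.44, adjusted p = 0.0154) fell too, Ccnd1 with a call lost without wild-type replicate 1 (0.0783) or 2 (0.0645) and with a second probe set not called (-0.56). Mmp9, Mmp3 and Mmp13, matrix metalloproteinases of wounds, were below the level for testing. Their signals were 127.0 and 136.8 for Mmp9, 45.3 and 30.6 for Mmp3 and 52.8 and 51.3 for Mmp13 in null skin, against 8.6 and 3.0, 12.9 and 10.8, and 14.6 and 9.4 in wild type, and they were picked out after their values were seen. Cd44 of the B chip, a hyaluronan receptor, fell on the stronger of its 2 tested probe sets (-0.79, adjusted p = 0.00399) and was not called on the other (-0.22) or on its tested A-chip probe set (-0.23).

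**Figure D4:**
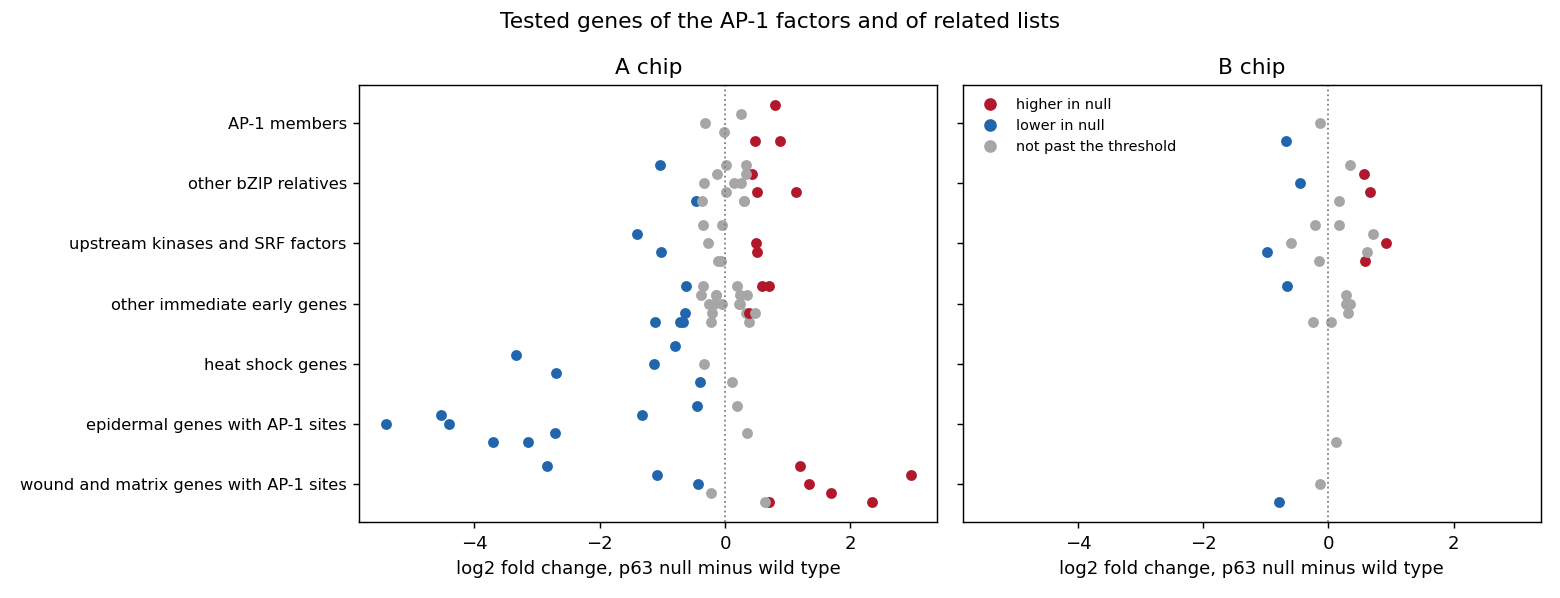
Log2 fold changes (p63 null minus wild type) of the tested genes of the AP-1 factors and of 6 related lists, A chip on the left and B chip on the right. Each point is a gene read by its probe set with the highest mean, red where it rose, blue where it fell and grey where it did not pass the threshold, and vertical offsets within a row only separate points. The AP-1 members lie within 1 log2 unit of 0, while the epidermal genes with AP-1 sites reach -5.42.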

How the data were processed

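Total RNA from whole skin was extracted with TriZol, cleaned with RNeasy and labelled with biotin, per the labels' protocols. The deposited values are probe set intensities on a linear scale from MAS5, a tool that the submitters' processing notes name without a version, and no detection calls were used. The number of arrays limits the precision. Groups came from the sample titles.

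Arrays of a chip were brought to 1 common 2% trimmed mean (250.1 to 250.2 on the A chip as deposited). An offset, the 20th percentile of the rescaled signals (A chip 13.0, B chip 54.5), was added and log2 taken. Control probe sets, 66 per chip, stayed out, and 7453 and 7446 probe sets passed the filter. Each chip was fitted alone in limma 3.58.1 under R 4.3.3 (lmFit, eBayes with an intensity trend), two-sided, with Benjamini-Hochberg adjustment over the probe sets tested. The fit was tested on simulated data. Probe sets with 1 symbol (10855 and 10603) were named by gene identifier through RefSeq on GRCm38.p6, which held 10839 and 10572 of them. A list gene with several tested probe sets was read by the one with the highest mean, and at most 3 per direction were named, or all of a count of 5 or fewer. The members and lists were chosen with earlier results of these data known. The alternatives were other filters, offsets, scalings, no variance trend, the replicate number as a block, and each array left out. The labels do not tie embryos of the same number in different genotypes, so the genotypes were compared unpaired. Nothing says how the embryos were related. The p-values set the genotype difference against the spread between these samples, with variances partly shared over the tested probe sets of a chip.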

Additional observations from a re-analysis of the deposited data

How the results depend on the processing

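Across the 12 alternatives the called AP-1 probe sets kept their direction wherever they were tested. Calls were kept under 12 of 12 alternatives for Atf3 and Fosl2 109982_at, 11 of 12 for Fosl2 163512_at, 10 of 12 for Jund and 10 of 11 for Fosb, which the filter at the 60th percentile removed. With each array left out in turn, 1 to 4 A-chip member probe sets were called higher, with 1 without wild-type replicate 2 and 4, Junb 102362_i_at added, without null replicate 1. On the B chip 1 to 2 were called lower, with 1 without wild-type replicate 2. With no filter 1 A-chip member probe set, Atf3 104156_r_at, was called lower. Jun changed sign under quantile normalization (0.005), and ranged from -0.16 to 0.11 with 1 array left out, with calls in none of these fits. Over all A-chip probe sets 1078 to 1570 were called higher and 1121 to 1727 lower with 1 array left out, and on the B chip 546 to 1186 and 557 to 1291, beside 1646, 1654, 1083 and 1106 with all arrays. The lowest came without a wild-type array: 1078 higher on the A chip without replicate 2, and for the B chip 563 higher and 576 lower without replicate 1, 546 and 557 without replicate 2. Deviations from the group means of same-numbered arrays of the genotypes correlated at 0.04 (A chip) and -0.05 (B chip). With so few arrays per genotype, these values cannot show whether such arrays share more than a number. The replicate block gave 1674 higher and 1695 lower for the A chip, 1229 higher and 1182 lower for the B chip, and changed no call of a member. Of the 47 calls of genes in the related lists, 18 were lost under at least 1 alternative and 0 changed sign. With all arrays kept, counts moved by over 1.5 times in several lists. On the A chip other bZIP genes had 2 to 5 higher beside 3 and 1 to 2 lower beside 2. Kinases there had 0 to 2 higher beside 2 and 1 to 2 lower beside 2. Other immediate early genes had 1 to 3 higher beside 3. Epidermal genes had 5 to 8 lower beside 8 and 0 to 1 higher beside 0, the filter at the 60th percentile testing 6 of them. On the B chip other bZIP genes had 0 to 1 lower beside 1 and kinases 2 to 4 higher beside 2. Counts also moved with single arrays left out. The cause of these moves was otherwise not tested.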
